A study of Mus musculus with 2 samples.

Results

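AP-1 is the family of paired leucine zipper transcription factors built from Fos and Jun proteins, and with *Egr1*, *Atf3*, *Ier2*, *Ier3* and the phosphatase gene *Dusp1* its genes make up the core of the immediate-early response. The 10 genes *Fos*, *Fosb*, *Jun*, *Junb*, *Jund*, *Egr1*, *Atf3*, *Ier2*, *Ier3* and *Dusp1*, of 32524 genes in the tables, were followed across the cell types of the arthritic mouse joint. They were named as a list after results of the same data had been seen, among them differences between the β-glucan and PBS libraries, so that their values are given as a description and without a test. All 10 symbols matched 1 gene each. All passed the minimum of 5 CPM in the macrophage and antigen-presenting compartment described below. CPM are UMIs scaled to 1000000 UMIs of the cells compared (compartment, cluster or other group) in each library. A UMI marks 1 captured mRNA molecule.

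The data were 2 single-cell RNA-sequencing libraries of sorted CD45+CD11b+ synovial cells, 1 from wild-type C57BL/6 mice that received β-glucan (BGL) and 1 from wild-type C57BL/6 mice that received PBS, each pooled from 4 mice aged 7 to 10 weeks when the experiments began. Both groups received a single intraperitoneal injection 7 days before arthritis induction, and hind paw cells were sorted on day 17 of arthritis. The sample labels describe arthritis from a cocktail of monoclonal antibodies followed by lipopolysaccharide. The series design and the paper's methods for the single-cell experiment instead name transfer of K/BxN serum. The paper's legends for these hind paw cells of day 17 name it as well. The conflict with the labels is not explained in the sources used here. The methods list β-glucan of 2 origins, a peptide from *Trametes versicolor* and a preparation from *Saccharomyces cerevisiae*, without saying which was used for these mice. The joints were digested warm with collagenase and DNase before sorting, and both libraries passed through that step, so that transcripts made in the joint and transcripts made during digestion cannot be told apart. No label ties a cell to a mouse. The difference between the libraries therefore has no replicate check, and every interval below is a 95% interval that covers counting error only.

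The BGL library held 5696 and the PBS library 4553 cells once barcodes with fewer than 500 genes or more than 10% of UMIs from mitochondrial genes were dropped. The cells fell into 19 clusters, found without the members and related genes, and 11 of these formed a compartment of 4612 BGL and 3674 PBS cells (65399402 and 60537149 UMIs). Of its clusters, 5 scored highest for macrophage markers, 3 for antigen-presenting cell markers, and 3 were unnamed. All 9 fixed macrophage markers were detected in the compartment, with summed levels of 10169 CPM in BGL and 9647 CPM in PBS, and *Ptprc* or *Itgam*, the genes of the sorted surface proteins CD45 and CD11b, had a UMI in 98.3% of its cells in both libraries. Some properties of the compartment differed between the libraries. The median depth was 13034 UMIs per cell in BGL and 15469.5 in PBS, antigen-presenting cell markers summed to 7273 and 10904 CPM, and genes spanning at least 100 kb took 19.5% and 17.7% of UMIs. Heat shock genes, a class with members that respond to handling and warmth, summed to 2239 and 2511 CPM. *Hspa8* (852 and 981 CPM) and *Hsp90ab1* (773 and 873 CPM) were the highest of them. Of the 11 genes 7 were lower in BGL and 4 higher, with *Hspa1a* at 53.8 and 47.9 CPM and *Hspa1b* at 40.7 and 40.5 CPM. The libraries shared 7 cell barcodes, of which 2 were kept in both. The part of these differences in the results below was not tested.

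Immediate-early genes need no new protein for their transcription. Signals from growth factors, cytokines, microbial ligands or mechanical stress reach them through MAP kinases, which activate transcription factors already bound at or near their promoters, and their short-lived mRNAs usually fade soon after. Fos and Fosb proteins bind DNA only as partners of Jun proteins. *Jun* and *Fos* together drive many inducible genes of myeloid cells, *Fos* is required for osteoclast formation, *Junb* and *Jund* often oppose *Jun*, and *Dusp1* switches off p38 and Jun N-terminal kinases. *Atf3* restrains many inflammatory genes in macrophages, *Egr1* is a zinc finger transcription factor, and *Ier2* and *Ier3* encode small inducible proteins, of which *Ier3* has been tied to cell survival.

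The members are small genes. On GRCm39 (GENCODE vM39), *Fos* lies at chr12:85520658-85524047 on the plus strand, *Fosb* at chr7:19036621-19043976 (minus), *Jun* at chr4:94937271-94940459 (minus), *Junb* at chr8:85701113-85705359 (minus) and *Jund* at chr8:71151599-71153265 (plus). *Atf3* lies at chr1:190902493-190950241 (minus), *Ier2* at chr8:85387960-85389483 (minus), *Ier3* at chr17:36132568-36133815 (plus) and *Dusp1* at chr17:26724564-26781102 (minus). Of the 10, 8 span less than 10 kb and the median span is 3.82 kb. *Atf3* and *Dusp1* are annotated over 47.7 and 56.5 kb through extended transcripts, while the canonical transcript of *Dusp1* spans 2.93 kb. Overlapping genes on the opposite strand are *Junos* at *Jun*, with 12.7 CPM in BGL and 9.27 CPM in PBS, *Prdx2* at *Junb*, *Gm11175* at *Jund* and *Ergic1* at *Dusp1*. On the same strand *Dusp1* overlaps *Gm50275*, which had 1 UMI in BGL and 0 in PBS.

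The 250 bases upstream of 4 members are shown because these genes stand for the spread of the responses below: *Fos* and *Jun* were level or higher in BGL in the compartment, and *Junb* and *Dusp1* were lower. The sequences are from RefSeq (table of GRCm38.p6), each was found once in GRCm39, and they run 5′ to 3′ toward the start of transcription. Capitals mark every TGACG on either strand, the core of the cAMP response element, and every TGACNTCA, the CRE-like form bound by dimers of Jun and ATF proteins. These patterns can overlap. The *Fos* window is chr12:85520414-85520663 (plus), the *Jun* window chr4:94940460-94940709 (minus), the *Junb* window chr8:85705378-85705627 (minus) and the *Dusp1* window chr17:26727447-26727696 (minus).
Fos: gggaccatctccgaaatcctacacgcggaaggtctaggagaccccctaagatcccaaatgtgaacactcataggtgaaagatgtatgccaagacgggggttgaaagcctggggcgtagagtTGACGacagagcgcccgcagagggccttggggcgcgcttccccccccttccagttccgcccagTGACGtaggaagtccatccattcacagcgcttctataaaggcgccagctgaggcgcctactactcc
Jun: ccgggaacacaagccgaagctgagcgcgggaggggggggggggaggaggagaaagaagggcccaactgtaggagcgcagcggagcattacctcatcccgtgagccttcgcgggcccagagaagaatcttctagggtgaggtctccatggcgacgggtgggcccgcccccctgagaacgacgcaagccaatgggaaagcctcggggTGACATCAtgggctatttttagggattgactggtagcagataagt
Junb: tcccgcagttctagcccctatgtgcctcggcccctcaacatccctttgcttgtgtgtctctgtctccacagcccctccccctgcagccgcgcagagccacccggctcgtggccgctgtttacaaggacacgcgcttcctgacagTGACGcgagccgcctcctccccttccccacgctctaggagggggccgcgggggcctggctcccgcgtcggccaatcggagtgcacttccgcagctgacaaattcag
Dusp1: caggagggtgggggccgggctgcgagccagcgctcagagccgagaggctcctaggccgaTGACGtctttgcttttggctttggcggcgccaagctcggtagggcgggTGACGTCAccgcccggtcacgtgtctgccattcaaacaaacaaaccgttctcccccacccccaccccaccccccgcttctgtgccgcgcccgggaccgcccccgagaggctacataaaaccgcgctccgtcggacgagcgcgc
Windows were found for 8 of the 10 members. That of *Jund* lies well upstream of the start annotated in GENCODE and held none of the motifs below. TGACG stood in 5 of the 8 windows (*Fos*, *Fosb*, *Junb*, *Atf3* and *Dusp1*), against 17.8% of 32851 RefSeq windows of the same length. The *Fos* window held 2 copies, 66 and 129 bases from the start. The *Dusp1* window held 3, with the full palindrome TGACGTCA at 143 bases, a match seen in 1.55% of all windows. TGACNTCA stood in the *Dusp1* and *Jun* windows and in 7.49% of all windows. The AP-1 site TGANTCA was in 0 of 8 windows (6.75% of all), the CArG box bound by serum response factor in 0 (1.47%), the Egr site GCGTGGGCG in 0 (0.536%), TATAAA in 1, that of *Fos* (7.59%), and GGGCGG in 6 (32.7%). A match of letters is no evidence of binding, and enhancers and elements further upstream lie outside these windows.

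Levels differed widely between cell types. The 15 clusters of 50 or more cells per library were ordered by the mean of the BGL and PBS levels. The basophil/mast-like cells of cluster 12 (*Mcpt4*, *Cma1*, *Cpa3*) were the highest for 6 members, *Fos*, *Fosb*, *Jun*, *Jund*, *Egr1* and *Ier2*. *Fos* stood there at 2677 CPM in BGL and 2618 CPM in PBS, *Jun* at 2303 and 2198 CPM, and *Egr1* at 1347 and 1561 CPM. Their depth was low, with a median of 3485 UMIs per cell. The neutrophil-like cells of cluster 9 (*S100a9*, *Retnlg*) were the highest for the other 4 members, *Junb*, *Atf3*, *Ier3* and *Dusp1*.

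Below those high clusters the order differed by gene. For *Fos* the neutrophil-like cells followed at a mean of 1527 CPM, then cluster 0 (*Nt5e*, *Spp1*) at 659.6 CPM, and the last place was held by the B cell-like cells of cluster 7 at 127 CPM, 20.9-fold below the first. Clusters 3, 6 and 4, at 558, 539 and 519 CPM, followed each other closely. The libraries stood further apart within cluster 3 (642 and 475 CPM) than these clusters from each other, so that their order is not resolved. *Jun* spanned 39.8-fold and *Egr1* 49.7-fold from the highest to the lowest cluster. *Jund* had the narrowest range, 5.17-fold, from 2032 CPM in the basophil/mast-like cells to 393 CPM in the NK cell-like cells of cluster 14, and its neutrophil-like, T cell-like and stromal-like means of 858, 822 and 820 CPM were closer to each other than BGL and PBS within each of them. *Jund* is known for expression in resting cells, in contrast to its inducible relatives.

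*Atf3* departed from the other members. Its neutrophil-like level of 340 CPM in BGL and 354 CPM in PBS was nearly matched in cluster 6 (*Ccl17*, *Cd209a*), at 328 and 348 CPM. In the basophil/mast-like cells, first for 6 members, *Atf3* ranked 14 of 15 with 46.2 CPM. Over the 30 points given by 15 clusters in 2 libraries, the correlation of log2(CPM + 1) with the mean of all 10 members was 0.34 for *Atf3*, while the other 9 members ranged from 0.78 (*Jund*) to 0.98 (*Fos*). Each member is part of that mean, and the points share 2 libraries.

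**Figure D1:**
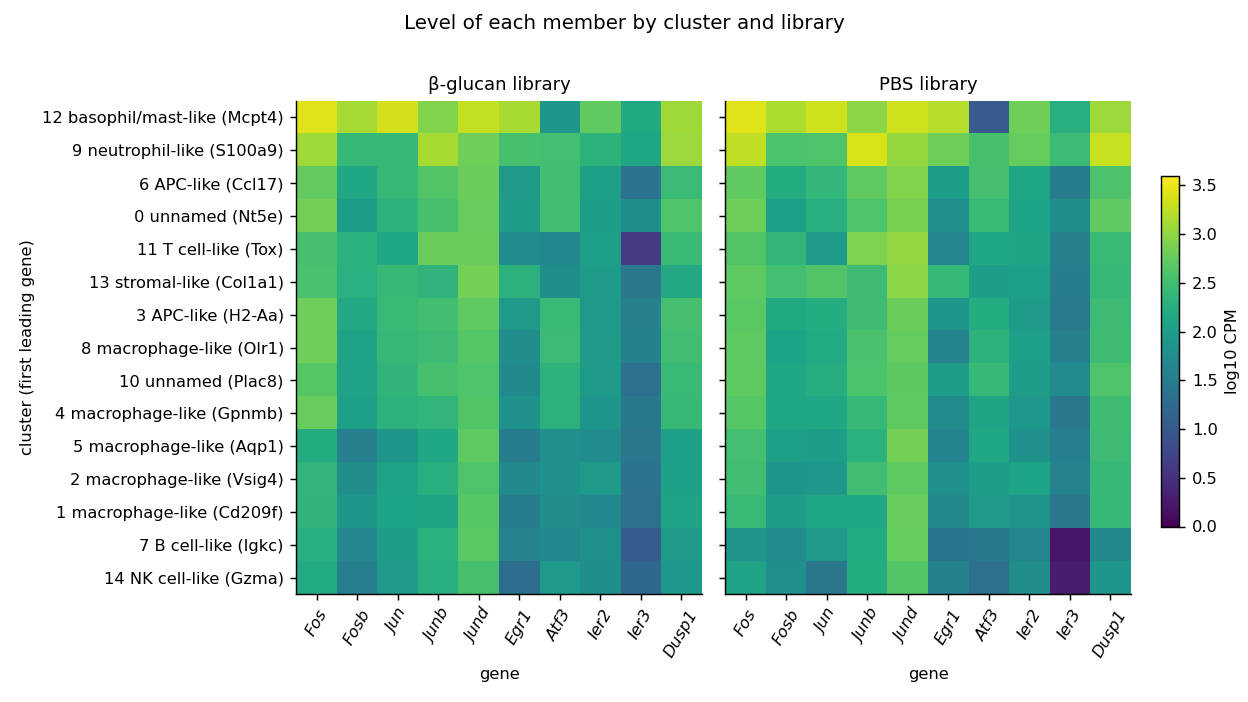
Level of each member in each cluster with at least 50 cells per library, from the BGL and PBS values in CPM on a log colour scale. The basophil/mast-like and neutrophil-like clusters hold the highest values, and *Atf3* is low in basophil/mast-like cells, with a mean of 46.2 CPM over the libraries.

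In the macrophage and antigen-presenting compartment, 8 of the 10 members were lower in BGL than in PBS, as were 42.3% of 9807 genes with at least 5 CPM. The fold limit used below is a log2 ratio of 0.32 in either direction. Past it were 5 members in the lower direction and 0 in the higher, and 3.07% and 3.86% of all these genes. The rule chose the members with this contrast in view, and nothing is read from the comparison of these shares. The log2 ratios of BGL over PBS ranged from -0.49 to 0.22 over the members, with a median of -0.27, against 0.03 for all genes. Genes spanning under 10 kb had a median of -0.06, and 5.47% of them were past the fold in the lower direction.

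The *Fos* genes parted. *Fos* was at 460 CPM in BGL and 455 CPM in PBS, a log2 ratio of 0.02 (-0.01 to 0.04). *Fosb*, which is induced alongside *Fos*, was at 98.3 and 123 CPM, a log2 ratio of -0.32 (-0.37 to -0.27). Its ratio of 0.799 sat at the edge of the fold limit.

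The *Jun* genes parted as well. *Jun* was at 183 CPM in BGL and 157 CPM in PBS, 1.16-fold higher (log2 0.22, 0.18 to 0.26). *Junb* was at 262 and 338 CPM (log2 -0.37, -0.40 to -0.34). *Jund* was at 495 and 654 CPM (log2 -0.40, -0.42 to -0.38). *Jun*, known as the stronger activator of the family, was thus higher in BGL, and both of its relatives were lower.

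*Dusp1*, the feedback phosphatase, had the lowest ratio of all members, with 245 CPM in BGL and 344 CPM in PBS (log2 -0.49, -0.52 to -0.46). *Ier2* was at 84.6 and 107 CPM (log2 -0.33, -0.39 to -0.28). *Ier3* was at 33.2 and 38.5 CPM (log2 -0.21, -0.30 to -0.13). *Egr1* and *Atf3*, both transcription factors outside the *Fos* and *Jun* families, were nearly level. *Egr1* was at 67.0 and 71.5 CPM (log2 -0.09, -0.15 to -0.03), and *Atf3* at 196 and 199 CPM (log2 -0.02, -0.06 to 0.01).

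**Figure D2:**
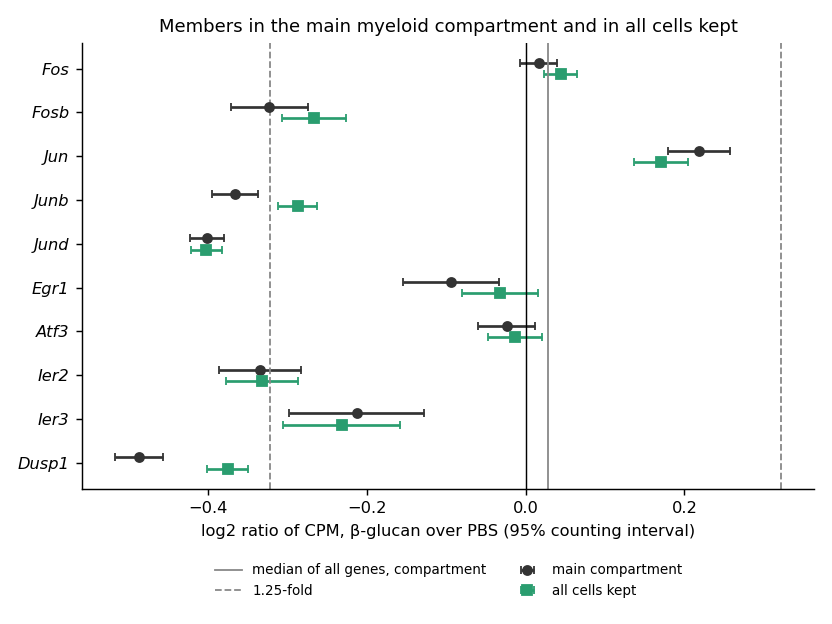
Log2 ratio of BGL over PBS for each member in the compartment and in all cells kept, with 95% counting intervals. *Dusp1* and *Jund* lie furthest below 0 in the compartment, at -0.49 and -0.40, and *Jun* lies above it at 0.22.

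Over all cells kept, *Jund* (-0.40), *Dusp1* (-0.38) and *Ier2* (-0.33) were past the fold in the lower direction, against 3.79% of 10380 genes, and 0 members were past it in the higher direction, against 5.71%. Outside the compartment the *Dusp1* ratio was -0.11 and the *Junb* ratio -0.20, while *Jund* stood at -0.45 and *Ier2* at -0.40. These values pool unlike clusters, which went both ways. The neutrophil-like cells had *Dusp1* at 1152 CPM in BGL and 2014 CPM in PBS, and *Junb* at 1339 and 2442 CPM. The B cell-like cells had *Dusp1* at 96.7 and 50.2 CPM, and *Junb* at 200 and 158 CPM. The part of the cluster makeup in the pooled ratios was not tested. Compartment cells were split into 4 equal groups by their share of UMIs from genes spanning at least 100 kb. The picture was mixed. Over these groups the *Jund* ratio ranged from -0.39 to -0.30, *Dusp1* went from -0.71 in the group with the lowest share to -0.02 in the highest, and *Fos* from -0.20 to 0.53. Between the same 2 groups *Junb* went from -0.47 to -0.10, *Egr1* from -0.28 to 0.48 and *Atf3* from -0.21 to 0.28. *Ier3* went from -0.57 to 0.20, *Fosb* from -0.36 to -0.17, *Ier2* from -0.33 to -0.12 and *Jun* from 0.07 to 0.29. The part of that share in the ratios of the members was not tested. Compartment cells were also grouped by mitochondrial share, at 0 to 2.5%, 2.5 to 5% and 5 to 10%. In that order the log2 ratios were -0.44, -0.57 and -0.42 for *Dusp1* and -0.33, -0.45 and -0.43 for *Jund*. For *Fos* they were -0.10, 0.04 and -0.13.

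*Jund* and *Fosb* were lower in BGL in each of the 15 clusters with at least 50 cells per library. The *Jund* ratios ran from -0.78 in the T cell-like cells of cluster 11 to -0.22 in cluster 3, and all 15 intervals lay below 0. In cluster 16 (*Arg1*, *Slc7a2*), with only 17 BGL cells, *Jund* was at 838 CPM in BGL and 725 CPM in PBS, with an interval of -0.03 to 0.44. For *Fosb* 10 of the 15 intervals lay below 0. Among the 18 clusters with at least 20 cells per library, *Fosb* was higher in BGL in 2. The higher of these ratios was 0.27, in cluster 15, and 1 of the 2 intervals lay above 0. *Ier2* was lower in 13, *Junb* in 12, *Dusp1* and *Ier3* in 10, *Egr1* in 9, *Atf3* in 8, *Fos* in 7 and *Jun* in 4 of the 15. Of the 150 pairs of member and cluster, 103 were lower in BGL (68.7%). The share of all genes lower in each cluster was not set beside these counts, and nothing is read from them about the members. These clusters share their 2 libraries and are not replicates.

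**Figure D3:**
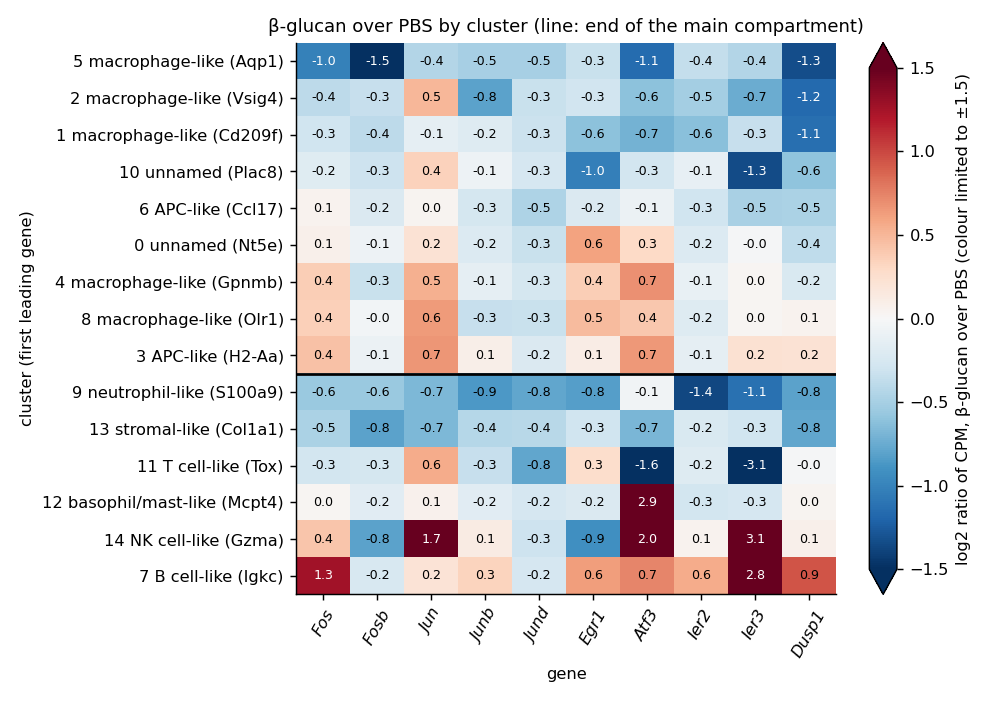
Log2 ratio of BGL over PBS of each member in each of the 15 clusters. *Jund* and *Fosb* are below 0 in every cluster, and clusters 1, 2 and 5 are low for most members whereas clusters 3, 4 and 8 are mixed or high.

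Within the compartment the clusters differed from each other. Cluster 5 (*Aqp1*, *Fxyd2*, *Lyve1*) had 8 members past the fold in the lower direction and 0 in the higher, with a background of 2.95% of genes lower and 3.43% higher. These counts within clusters, like their backgrounds, take only genes that averaged at least 50 CPM in the cluster, which 8 members did here. *Egr1* (33.6 and 42.4 CPM) and *Ier3* (26.3 and 35.8 CPM) were under that minimum. *Fos* stood there at 163 CPM in BGL and 330 CPM in PBS (log2 -1.02, -1.13 to -0.91), and *Fosb* at 37.0 and 107 CPM (log2 -1.53, -1.75 to -1.31). *Atf3* was at 64.8 and 144 CPM and *Dusp1* at 116 and 292 CPM. Even *Jun*, higher in the compartment as a whole, was lower there, at 77.8 and 105 CPM.

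Cluster 1 (*Cd209f*, *Ednrb*) had 4 of 8 members past the fold lower (2.41%) and 0 higher (3.58%). Its *Dusp1* level was 118 CPM in BGL and 258 CPM in PBS (log2 -1.13, -1.25 to -1.02). Cluster 2 (*Vsig4*, *S100b*) had 7 of 9 members past the fold lower (background 1.56%) and 1 higher (2.1%). *Junb* was at 180 and 312 CPM and *Dusp1* at 115 and 258 CPM, while *Jun* was at 118 and 83.2 CPM, the 1 that was higher. The BGL level of *Dusp1* was thus 0.456, 0.445 and 0.396 of the PBS level in clusters 1, 2 and 5.

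Cluster 3 (*H2-Aa*, *Ccr2*), which carries genes of MHC class II and of the monocyte receptor *Ccr2*, differed from these. There 0 of 9 members were past the fold lower (background 2.1%) and 3 were past it higher (4.13%). *Fos* was at 642 CPM in BGL and 475 CPM in PBS (log2 0.43, 0.37 to 0.50), *Jun* at 268 and 169 CPM (log2 0.66, 0.56 to 0.77), and *Atf3* at 268 and 170 CPM (log2 0.65, 0.55 to 0.76). *Dusp1* was also higher, at 344 and 297 CPM, though not past the fold, and *Jund* remained lower, at 530 and 615 CPM.

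Cluster 4 (*Gpnmb*, *Apoe*) had 1 of 9 members past the fold lower (2.51%) and 4 higher (6.27%), with *Atf3* at 206 CPM in BGL and 128 CPM in PBS. Cluster 8 (*Olr1*, *Cx3cr1*) had 2 of 8 lower (3.62%) and 3 higher (9.57%), with *Jun* at 250 and 161 CPM. In cluster 0 (*Nt5e*, *Spp1*), which the muscle genes *Acta1* and *Mylpf* also led, 2 of 10 were lower (1.11%) and 1 was higher (3.66%). That 1 was *Egr1*, at 102 and 66.6 CPM, in the same cells in which *Dusp1* was at 404 and 528 CPM. Cluster 6 (*Ccl17*, *Cd209a*) had 2 of 9 lower (4.43%) and 0 higher (6.24%), and the shallow cluster 10 (*Plac8*, *Chil3*, median 4897 UMIs) had 2 of 9 lower (11.1%) and 1 higher (12.4%). Its *Egr1* level was 50.4 CPM in BGL and 103 CPM in PBS.

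The makeup of the compartment also differed, with 286 BGL and 438 PBS cells in cluster 6 and 294 and 157 cells in cluster 8. When every cluster was given the same weight, 2 members, *Dusp1* and *Jund*, stayed past the fold. Cell types were rebuilt here from deposited counts, and no macrophage-like cluster had a fixed macrophage marker among its 10 leading genes. The clusters are therefore best read by their number and leading genes.

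Among the cells outside the compartment, the neutrophil-like cells of cluster 9 had 9 of 10 members past the fold lower and 0 higher, with backgrounds of 18.4% of genes lower and 25.7% higher. *Junb* was at 1339 CPM in BGL and 2442 CPM in PBS, *Dusp1* at 1152 and 2014 CPM, *Fos* at 1235 and 1818 CPM, and *Ier2* at 216 and 556 CPM. *Atf3* was the exception, at 340 and 354 CPM. The macrophage gene *C1qa*, which neutrophils lack, stood beside these at 1651 and 852 CPM, a *C1qa* UMI was found in 76.8% and 48.8% of thinned cells, and the median depths were 9289 and 4726 UMIs. The part of macrophage RNA and of depth in the neutrophil-like difference was not tested. The stromal-like cells of cluster 13 had 7 of 9 members past the fold lower (13.7%) and 0 higher (9.48%), with *C1qa* at only 83.2 and 107 CPM.

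The CD11b gate should mostly remove B and T cells. Of the lymphoid clusters, the B cell-like and NK cell-like ones were low in most members, while the T cell-like cells ranked 3 of 15 for *Junb* and *Jund*. The B cell-like cells had 0 of 6 members past the fold lower (7.66%) and 4 higher (17.4%), with *Fos* at 179 CPM in BGL and 75.02 CPM in PBS. *C1qa* was at 694 and 379 CPM in the same cells. Per 100 *C1qa* UMIs, the B cell-like cells held 25.8 and 19.8 *Fos* UMIs, and the compartment held 18.2 and 18.9. Their *Atf3* counts were 6.85 and 7.57 per 100 *C1qa* UMIs, against 7.76 and 8.28 in the compartment, so that *Atf3* and *C1qa* stood in nearly the same ratio in both. Their *Jund*, at 68.3 and 149 per 100, exceeded the compartment's 19.6 and 27.2.

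The T cell-like cells had 3 of 8 members past the fold lower (10.6%), which were *Junb*, *Jund* and *Atf3*, and 1 higher (18.3%), which was *Jun*. *Ier3*, under the minimum, had 5 UMIs there in BGL and 49 in PBS. The NK cell-like cells of cluster 14 had 0 of 7 lower (16.4%) and 3 higher (23%), where *Jun* had 81 and 14 UMIs. The basophil/mast-like cells had 0 of 9 lower (20.5%) and 0 higher (20.2%). *Atf3*, just under the minimum there, had 46 and 5 UMIs, or 12.5 and 4.39 per 100 *C1qa* UMIs, where the compartment had 7.76 and 8.28. Their *Fos* and *Jun* levels were close between the libraries, with ratios of 1.02 and 1.05.

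The share of cells with a UMI was compared after each cell was thinned to 5000 UMIs, which left out 376 BGL and 284 PBS cells of the compartment. *Dusp1* was seen in 39.0% of BGL cells (37.5 to 40.5%) and 48.6% of PBS cells (46.9 to 50.3%), and unthinned in 54.9% and 65.1%. *Junb* was seen in 53.1% and 62.6% (unthinned 73.0% and 82.2%), and *Jund* in 82.7% and 88.7% (unthinned 93.7% and 96.6%). *Jun* was the 1 member seen in more BGL cells, 39.6% against 35.0% (unthinned 57.2% and 55.9%). *Fos*, level in CPM, was seen in 52.3% of BGL cells and 56.0% of PBS cells (unthinned 65.9% and 71.7%). For the remaining 5 members the BGL share minus the PBS share was between -4.74 (*Fosb*) and -1.01 (*Egr1*) percentage points. No cell type of the joint lacks the members, so that the macrophage gene *C1qa* serves as the gauge of free RNA. Stromal-like cells, which should lack it, had a *C1qa* UMI in 8.57% and 12.3% of thinned cells, with median depths of 17689 and 20874 UMIs, and the *C1qa* shares of lymphoid cells were higher. The *Egr1* share was 14.6% and 15.6%, and the *Ier3* share 11.3% and 13.2%. *C1qa* had 165087 UMIs in the BGL compartment, against 4381 for *Egr1* and 2172 for *Ier3*, so its stray UMIs do not measure theirs. The part of free RNA in the *Egr1* and *Ier3* shares was not tested, and they are not read as shares of expressing cells.

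The members were unevenly spread over cells. The 10% of thinned cells with the most UMIs of a gene held 55.0% of all *Fos* UMIs in BGL and 54.4% in PBS, and 85.9% and 83.7% for the sparser *Egr1*. For *Jund* they held 30.9% and 28.5%, the flattest spread, and for *Dusp1* 61.9% and 52.9%. The summed UMIs of the 10 members per thinned cell had a median of 6 in BGL and 8 in PBS, a ratio of 0.75. At the 90th percentile the sums were 24 and 27 (ratio 0.889), and at the 99th 63 and 65 (ratio 0.969). In the pooled compartment the gap was thus wide in the middle of the distribution and narrow at its top. Cells with no UMI of any member were 2.74% in BGL and 1.45% in PBS. In unthinned cells the same quantiles had ratios of 0.752, 0.896 and 0.967. Single clusters did not all follow the pooled pattern. In thinned cells the 99th percentiles were 36.3 in BGL and 51.3 in PBS in cluster 2, and 27.2 and 49.6 in cluster 5. They were higher in BGL in cluster 0 (71.0 and 61.2) and cluster 3 (70.7 and 62.7).

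**Figure D4:**
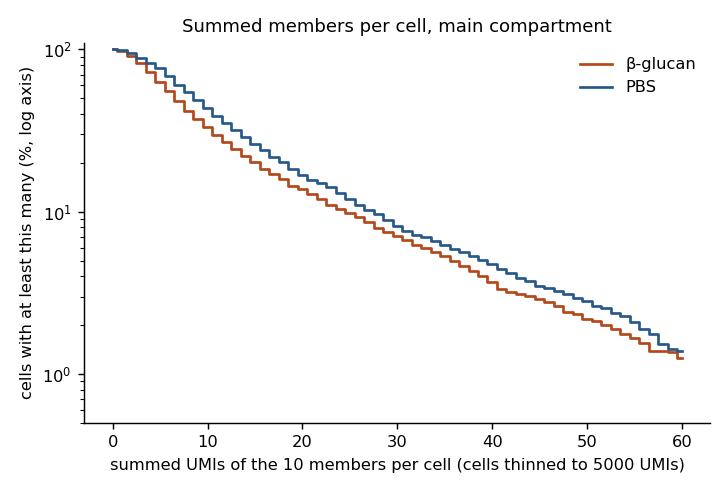
Share of thinned compartment cells (%) with at least a given number of summed member UMIs, for BGL and PBS. The curves lie apart around their medians of 6 and 8 UMIs and close to each other near the 99th percentiles of 63 and 65.

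By role, the *Jun* genes had a median sum of 3 in BGL and 5 in PBS and means of 4.66 and 5.68 UMIs per thinned cell. That group joins *Jun*, which was higher in BGL, with *Junb* and *Jund*, which were lower. *Fos* and *Fosb* had medians of 1 in both and means of 2.71 and 2.96. The other 5 members had medians of 1 and 2 and means of 3.03 and 3.74.

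Cells were also grouped by their thinned *Fos* count, a grouping set after the data had been seen. Cells with 0 *Fos* UMIs were 47.7% of BGL and 44.0% of PBS cells, and cells with 10 or more were 5.59% and 6.02%. In cells with no *Fos* UMI, *Dusp1* had 0.284 UMIs per cell in BGL and 0.585 in PBS, a log2 ratio of -1.04. The ratio was -0.75 at 1 to 2 *Fos* UMIs, -0.48 at 3 to 9 and -0.09 at 10 or more, where *Dusp1* had 7.19 and 7.63 UMIs per cell. With the same weight for each cluster these log2 ratios were -0.94, -0.81, -0.57 and -0.21, the last over 4 clusters. *Fosb* went the same way, from -0.75 through -0.54 and -0.16 to 0.02. *Junb* was at -0.45, -0.44, -0.34 and 0.02.

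*Jund* did not narrow in that way. Its ratios were -0.50 (-0.56 to -0.44), -0.30, -0.33 and -0.36 (-0.48 to -0.24), and in PBS cells with no *Fos* UMI it still had 2.90 UMIs per cell, against 2.05 in BGL. *Jun* was higher in BGL in all 4 groups, by 0.28, 0.41, 0.12 (0.002 to 0.25) and 0.07 (-0.07 to 0.21). The last of these intervals included 0. *Atf3* differed most where *Fos* was absent, at -0.38, but that ratio was -0.10 with the same weight for each cluster.

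**Figure D5:**
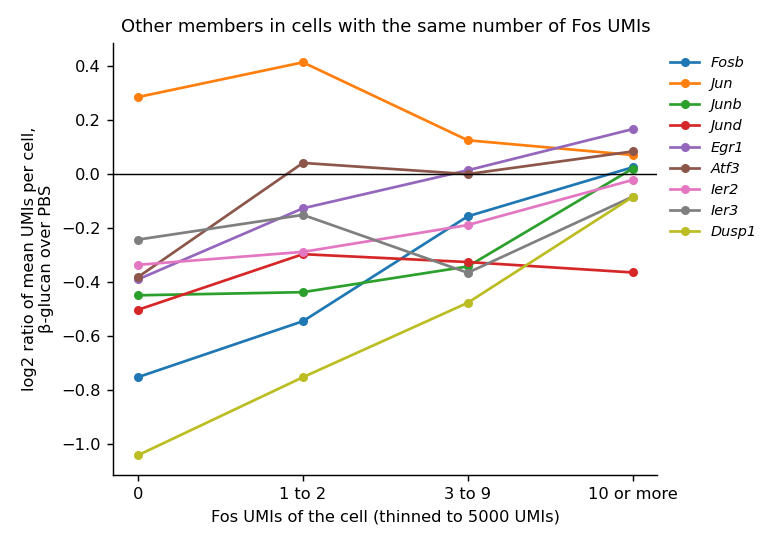
Log2 ratio of BGL over PBS of the other 9 members in thinned compartment cells with 0, 1 to 2, 3 to 9 and 10 or more *Fos* UMIs. *Dusp1* goes from -1.04 to -0.09, whereas *Jund* stays between -0.50 and -0.30.

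These differences altered the makeup of the families. Of *Jun* family UMIs, *Jun* took 19.5% in BGL and 13.7% in PBS, *Junb* 27.9% and 29.4%, and *Jund* 52.7% and 56.9%. The *Jun* share was higher in BGL in 14 of 15 clusters, with overlapping intervals in clusters 1, 5, 7 and 9. Of *Fos* family UMIs, *Fos* took 75.6% and 69.1%, *Fosb* 16.2% and 18.7%, *Fosl2* 8.02% and 11.9%, and Fosl1 0.176% and 0.301%. The *Fos* share was higher in BGL in each of the 15 clusters, including those in which *Fos* itself was lower. Among the latter the intervals of the share were apart in cluster 1 and overlapped in clusters 2, 5, 9, 10, 11 and 13. In cluster 5 the shares were 65.9% (63.5 to 68.2%) in BGL and 65.3% (63.5 to 67.1%) in PBS.

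Across thinned compartment cells of 1 library, the members were weakly to moderately correlated. The median Pearson r of log2(UMI + 1) over the 45 pairs was 0.24 in BGL and 0.23 in PBS, and 0.24 and 0.25 as the median within clusters. *Fos* and *Dusp1* formed the closest pair, with r of 0.62 and 0.57, followed by *Fos* and *Atf3* at 0.50 and 0.46. *Ier2* and *Ier3* were the members least tied to the rest, with median r of 0.18 and 0.19 in BGL and 0.18 and 0.17 in PBS, followed by *Jund* at 0.21 in both. Sparse counts lower all of these values.

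Genes outside the list with the pattern most like the members were found by their correlation with the members' mean. Over the 30 points of cluster and library and 9664 genes these included *Zfp36* (r = 0.91), *Ifrd1* (0.88), *Nfkbiz* (0.88), *Flot1* (0.82), *Rabgef1* (0.82), *Nfkbia* (0.80), *Basp1* (0.80), *Gm34455* (0.79) and *Nr4a1* (0.78). Over 7626 thinned compartment cells and 6405 genes they were *Zfp36* (0.62), *Rgs1* (0.45), *Cd83* (0.43), *Nfkbiz* (0.40), *Klf6* (0.40), *Tnfaip3* (0.39), *Pim1* (0.39), *Btg2* (0.38), *Socs3* (0.37) and *Nr4a1* (0.36). *Zfp36*, *Nfkbiz* and *Nr4a1* were in both groups, and *Zfp36*, whose protein binds AU-rich elements and speeds mRNA decay, led both. Likeness in pattern did not go with 1 direction in the compartment, where *Zfp36* was at 221 CPM in BGL and 243 CPM in PBS and *Nfkbiz* at 175 and 142 CPM.

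The genes around AP-1 gave a mixed picture. Of all 9807 genes with at least 5 CPM, 42.3% were lower in BGL, 3.07% past the fold lower and 3.86% past it higher. These shares stand beside the counts of every list below. The lists were chosen with earlier results known, and nothing is read from the comparison. Of 35 other immediate-early genes 32 had at least 5 CPM, of which 29 were lower in BGL, 13 past the fold lower and 0 past it higher, with a median log2 ratio of -0.30. The lowest were *Nr4a2*, an orphan nuclear receptor (31.8 CPM in BGL and 55.1 CPM in PBS, log2 -0.79), *Phlda1* (10.6 and 17.8 CPM, -0.74) and the bZIP factor gene *Cebpb* (224 and 367 CPM, -0.71). The highest were *Nfkbiz* (log2 0.30), *Zfp36l1* (0.09) and *Cebpd* (0.07). These genes were also mostly short, 24 of the 32 spanning under 10 kb. Of all genes under 10 kb, 5.47% were past the fold lower.

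Of 11 other AP-1 and bZIP genes 8 were measured, 3 were past the fold lower and 0 higher, and the median was -0.06. It was -0.15 with a minimum of 1 CPM and -0.16 with 20 CPM. *Fosl2* was at 48.8 CPM in BGL and 78.0 CPM in PBS (log2 -0.68). *Batf3*, a partner of *Jun* in dendritic cells, was at -0.44 and *Jdp2*, a repressor of AP-1, at -0.34. *Atf7* (0.20), *Batf* (0.24) and *Mafg* (0.24) had the highest ratios. All 18 upstream kinases and serum response factors were measured, 0 were past the fold in either direction and the median was 0.02. *Srf* (-0.14), *Map2k1* (-0.09) and *Mrtfa* (-0.08) were the lowest and *Mrtfb* (0.28), *Elk3* (0.22) and *Rps6ka3* (0.19) the highest. The mRNA levels of these genes say nothing of the activity of their proteins.

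Other feedback regulators of MAP kinases differed in both directions. Of 15 listed 8 were measured, 2 past the fold lower and 2 higher, with a median of 0.15. The sign of that median rests on the minimum, since at 1 CPM it was -0.06 over 12 genes, of which 7 were lower. *Dusp5*, which acts on ERK in the nucleus, was at 5.12 CPM in BGL and 8.72 CPM in PBS (log2 -0.77), *Dusp10* at -0.40 and *Dusp16* at -0.11. *Dusp6*, which acts on ERK in the cytoplasm, was at 87.9 and 64.6 CPM (log2 0.44), with *Dusp7* at 0.42 and *Spred1* at 0.20. Heat shock genes had 0 of 11 past the fold and a median of -0.13, from *Dnajb1* (-0.22), *Hspe1* (-0.21) and *Hspa8* (-0.20) to *Hspd1* (0.05), *Hsph1* (0.13) and *Hspa1a* (0.17).

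Of 17 inducible inflammatory genes, several of them known AP-1 targets, 13 were measured, 6 past the fold lower and 2 higher, with a median of -0.26. The lowest was the gelatinase gene *Mmp9*, at 0.719 CPM in BGL and 10.3 CPM in PBS, followed by the chemokine genes *Ccl7* (log2 -0.72) and *Ccl2* (-0.69). Osteoclast markers, *Mmp9* among them, summed to 141 and 225 CPM in the compartment, and their part in the *Mmp9* ratio was not tested. The highest were *Il1b* and the chemokine genes *Ccl3* and *Ccl4*, with log2 ratios of 0.40, 0.40 and 0.28.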

How the data were processed

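Single-cell 3′ mRNA was measured in 2 libraries, 1 per treatment. The authors deposited raw UMI counts per gene and barcode, made with Cell Ranger 7.0.0 on GRCm39 with Ensembl 104 per the methods. The processing notes also name mm10, and whether intronic reads were counted is not given in the sources used here. UMIs from introns would raise long genes over the short genes described.

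Barcodes under 500 genes or over 10% mitochondrial UMIs were dropped (leaving 5696 in BGL and 4553 in PBS, with 78355957 and 70781891 UMIs). They were clustered with SCTransform in Seurat 5.3.0 (R 4.3.3), with 30 principal components and resolution 0.7, after leaving 45 immediate-early and AP-1 genes out of the components. A cluster was called X-like from the marker list with the highest score, if that score was above 0 and at least 3 of its markers were each detected in 25% of cells. The compartment took macrophage-like and APC-like clusters and the unnamed clusters 0, 10 and 16. Scrublet (scanpy 1.11.5) called 0 BGL and 2 PBS cells (0.0439%), so it had not worked, and doublets were kept.

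UMIs were summed per library and gene over the cells compared and scaled to CPM by the UMI total of those cells. With 1 library per group no test, p-value or SD was possible. Ratios carry exact conditional binomial 95% intervals and shares Clopper-Pearson intervals. A gene was past the fold limit at a log2 ratio of CPM of 0.32 or more in size, among genes averaging 5 CPM or more (50 CPM within a cluster). On simulated counts for 9807 genes, 200 of them changed, 95.1% of intervals held the true value. The simulation drew counting error only, as the intervals assume. It therefore checks the calculation and says nothing of the spread between cells or mice.

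The members and all gene lists were chosen with earlier results of these data known. The groups by *Fos* count, the family shares, the 50 CPM minimum within clusters, the placing of unnamed clusters and the promoters printed were chosen after the values were seen. The text names all members, the 3 highest and 3 lowest genes of each list, and the 10 genes most like the members by each measure. Of these genes, 1 is not reported here. Alternatives of scaling, filters, cell sets and cell matching were computed. Promoter windows of 2 members (*Egr1* and *Ier2*) and protein sequences were not used here.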

Additional observations from a re-analysis of the deposited data

Results flagged for a closer look

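The ratio of BGL over PBS differed between clusters for 6 members, in that the cluster with the highest ratio and the cluster with the lowest had intervals on opposite sides of 0, among the 9 clusters of the compartment with at least 50 cells per library. For *Fos* the log2 ratios of clusters 3 and 5 differed by 1.45, for *Jun* by 1.10 and for *Dusp1* by 1.55. *Atf3* differed by 1.84 between clusters 4 and 5, *Egr1* by 1.64 between clusters 0 and 10, and *Junb* by 0.89 between clusters 3 and 2. With 1 library per group these differences were not tested, and the clusters were picked as the extremes of those 9.

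The barcodes that the filter left out, 1500 in BGL and 1207 in PBS, gave other values than the cells kept. *Fos* was there at 299 CPM in BGL and 220 CPM in PBS (log2 0.44), *Jun* at 105 and 79.5 CPM (0.41), *Egr1* at 87.8 and 69.8 CPM (0.33) and *Fosb* at 103 and 82.1 CPM (0.33). *Fosb* was thus lower in BGL among the cells kept and higher among the barcodes left out. *Jund* remained lower, with a log2 ratio of -0.22, and *Junb* (-0.06) and *Dusp1* (0.09) had intervals that included 0.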

How the results depend on the processing

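Over 28 alternatives of scaling, filter and cell set, the median log2 ratio of the members ranged from -0.35 to -0.21. *Dusp1* was past the fold limit in the lower direction in 28, *Jund* in 27 (-0.30 with cells paired by the share of long-gene UMIs), *Junb* in 22, *Ier2* in 20 and *Fosb* in 19. *Jun* was higher in all 28, and no member that was past the limit changed sign. Resolutions 0.5 and 1 and members kept in the components gave compartments of 4613, 4611 and 4618 BGL cells, against 4612. Dropping the Scrublet calls removed at most 2 cells. Leaving out the highest doublet scores rests on the same tool, which had not worked. The counts out of 28 therefore do not count separate checks. The count of members past the limit, 5 as reported, was 2 with equal weight per cluster, with cells paired by mitochondrial share, with cells paired by long-gene share, without cluster 2 and without cluster 6, where 1 member (*Jun*) was past it in the higher direction. It was 3 with all cells kept and without cluster 1, and 0 at 1.5-fold. The 2 left were *Dusp1* and *Fosb* with pairing by long-gene share and *Dusp1* and *Jund* otherwise. The median was -0.33 without the unnamed clusters, -0.35 without cluster 0, -0.31 without cluster 3, -0.22 without cluster 5 and -0.21 without cluster 2. The median difference in the share of cells was -4.07 percentage points thinned and -7.12 unthinned. The median correlation was 0.31 in BGL and 0.29 in PBS on log-normalized values. The inflammatory list had a median of -0.33 at a minimum of 1 CPM and -0.40 at 20 CPM. The causes were not tested. Leaving out clusters, the highest doublet scores, or the unnamed or APC-like clusters was chosen after seeing the data. No paired analysis was possible because each group is 1 library, and for the same reason no replicate could be left out. Without a CPM minimum 16.1% of genes were past the limit in the lower direction, so that depth sets the background for rare genes.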

Other observations

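Clusters too small for the comparisons held further values. In the proliferating-like cells of cluster 15 (*Mki67*, *Top2a*; 49 BGL and 76 PBS cells) *Fos* was at 509 CPM in BGL and 362 CPM in PBS and *Jund* at 515 and 660 CPM. In the endothelial-like cells of cluster 17 (*Acta2*, *Fabp4*; 55 and 29 cells) *Fos* was at 925 and 588 CPM and *Jun* at 512 and 531 CPM. In cluster 18 (*Clec9a*, *Xcr1*; 34 and 24 cells), genes of conventional dendritic cells, *Dusp1* was at 214 and 127 CPM and *Jund* at 505 and 640 CPM.

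The ratios of *Jun* and *Fos* differed between groups of compartment cells with different UMI counts, without 1 trend. In cells under 5000 UMIs *Jun* was at 153 CPM in BGL and 157 CPM in PBS (log2 -0.04, -0.38 to 0.30) and *Fos* at 514 and 469 CPM (0.13, -0.06 to 0.32). In cells with 5000 to 10000 UMIs *Jun* was at 204 CPM in BGL and 224 CPM in PBS (log2 -0.14, -0.26 to -0.01) and *Fos* at 463 and 551 CPM (-0.25). The largest group, 10000 to 20000 UMIs, held 2555 BGL and 1894 PBS cells. There *Jun* was at 178 and 155 CPM (0.21, 0.15 to 0.26) and *Fos* at 432 and 469 CPM (-0.12). In cells with at least 20000 UMIs *Jun* was at 185 and 151 CPM (0.29, 0.23 to 0.36) and *Fos* at 506 and 427 CPM (0.24). *Jund* was lower in BGL in all 4 depth groups, with ratios from -0.49 to -0.38, and *Dusp1* likewise, from -0.67 to -0.31. What sets these depth groups apart was not tested.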
